A study of Mus musculus with 16 samples.

Results

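The genes described here encode the calcium handling and excitation machinery of heart muscle: 36 genes taken by symbol from a list of names, all of them found among the 48709 gene identifiers of the count table. RNA was measured in heart and liver of 8 untreated female mice of strain C57BL/6J, aged 3 to 6 months. The 4 knockout animals, labelled as quadruple knockouts of the methionine sulfoxide reductases (QKO), were compared with 4 wild type (WT) animals. Heart and liver were taken from each animal, giving 16 libraries in 4 groups of 4, and the labels give neither the alleles of the knockout nor the chamber of the heart that was taken. Methionine sulfoxide reductases reduce oxidised methionine in proteins, and the question for these genes was how their RNA differed with genotype and with tissue.

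Each heartbeat starts with an action potential, carried by sodium and calcium entry and ended by potassium efflux. Calcium that enters through the L-type channel opens the ryanodine receptor of the sarcoplasmic reticulum, and the released calcium makes the sarcomere contract. The muscle relaxes when the calcium pump SERCA2a returns calcium to the store, under the brake of phospholamban, and the sodium-calcium exchanger moves the remainder out of the cell. Adrenergic signalling through cyclic AMP sets the strength and rate of this cycle, and gap junctions pass the impulse from cell to cell.

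Total counts were 42.1 M to 72.6 M in heart and 37.9 M to 67.9 M in liver. Of the heart counts, 9.21 M to 28.2 M fell on protein-coding genes, and nuclear ribosomal RNA took 31.3% to 56.8% in 6 hearts, 7.20% in WT heart 4 and 0.139% in QKO heart 4. The labels were checked on Msrb2, at 8.81 to 10.7 CPM (counts per 1 M counts, on library sizes scaled within a tissue) in WT hearts and 0.0844 to 0.169 CPM in QKO hearts, and on Msrb3, at 34.1 to 36.9 and 5.41 to 6.37 CPM. Msra lay at 6.91 to 8.23 and 4.98 to 5.58 CPM, while Msrb1 lay at 10.2 to 11.8 CPM in WT and 13.6 to 17.2 CPM in QKO hearts. In livers, Msrb2 had 3.47 to 8.44 CPM in WT and 0 to 0.0625 CPM in QKO, and Msrb3 10.7 to 14.7 and 2.31 to 4.18 CPM. Msra had 66.7 to 83.2 CPM in WT and 42.2 to 49.3 CPM in QKO livers. Msrb1 overlapped there, at 114 to 145 and 86.4 to 142 CPM. Heart tissue carried its defining transcripts, with ventricular Myl2 at 1917 to 2275 CPM, whereas atrial Myl7 ranged from 0 to 11.2 CPM.

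The sequences before the transcription start are shown for the member with the smallest p-value between genotypes (Kcnj2), for the pump regulator with the highest level per length (Pln) and for the calcium store protein with an unadjusted p under 0.05 (Casq2). They are the 250 bases before the start given by RefSeq on GRCm38.p6, 5′ to 3′, in lower case. Capitals mark matches, searched on both strands, to the GC box GGGCGG, to TATAAA, the core promoter box, or to AGATAA, a motif of cardiac GATA factors, and in these windows no matches overlapped. Kcnj2 lies at chr11:111065914-111066163, Pln at chr10:53337436-53337685 and Casq2 at chr3:102086165-102086414, all on the + strand.
Kcnj2: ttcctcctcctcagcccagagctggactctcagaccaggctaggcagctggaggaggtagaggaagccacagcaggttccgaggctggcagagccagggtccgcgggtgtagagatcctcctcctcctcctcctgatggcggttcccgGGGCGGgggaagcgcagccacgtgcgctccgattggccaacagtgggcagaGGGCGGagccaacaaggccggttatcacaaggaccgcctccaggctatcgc
Pln: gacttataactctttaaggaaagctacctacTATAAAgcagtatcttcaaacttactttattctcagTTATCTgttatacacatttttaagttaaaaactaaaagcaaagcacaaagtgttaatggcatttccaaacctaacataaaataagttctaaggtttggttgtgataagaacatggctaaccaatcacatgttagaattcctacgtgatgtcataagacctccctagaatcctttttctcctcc
Casq2: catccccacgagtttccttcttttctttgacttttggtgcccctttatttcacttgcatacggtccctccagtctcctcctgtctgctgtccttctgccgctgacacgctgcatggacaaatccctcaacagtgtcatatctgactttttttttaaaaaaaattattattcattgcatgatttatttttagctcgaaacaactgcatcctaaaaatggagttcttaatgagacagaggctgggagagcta
The Kcnj2 window held 2 GC boxes, and the Casq2 window matched none of the patterns searched. The Pln window held 1 match to TATAAA, 219 bases before the start. It also held 1 match to AGATAA, read on the opposite strand, 183 bases before the start. Promoters of 26 members were found, in 30 windows. GGGCGG occurred in 53.3% of these windows and in 32.7% of all 32851 mouse windows, AGATAA in 13.3% and 9.99%, TATAAA in 3.33% and 12.4%, and the MEF2 motif in 0 windows and 3.20% of all windows. These are matches of letters, given as a description.

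In the hearts, the calcium uptake genes other than Sln had the highest levels of the set. Per kilobase of exon, Pln, the phospholamban gene, had 507 ± 38.1 CPM per kb in WT (SD, n = 4), and Atp2a2, which encodes the SERCA2a pump, had 501 ± 27.1. S100a1, a calcium-binding activator of the pump and the ryanodine receptor, followed with 120 ± 7.73 CPM per kb. Among the release genes, Casq2, the calsequestrin that buffers stored calcium, had 71.8 ± 5.85, Ryr2, the ryanodine receptor, 39.0 ± 0.517, Hrc, a histidine-rich luminal protein, 35.8 ± 3.35, and Jph2, which anchors the junction, 22.2 ± 0.815 CPM per kb. Pln and Atp2a2 did not differ beyond their spread, nor did Ryr2 and Hrc.

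Channel genes lay below these, among the release genes Trdn (5.86 CPM per kb) and Asph (3.88 CPM per kb). Kcnip2, the accessory subunit of the transient outward potassium channel, had 8.73 ± 0.272 CPM per kb in WT hearts, Cacna1c, the pore of the L-type calcium channel, 5.78 ± 0.328, and Kcnj2, the pore of the inward rectifier that holds the resting potential, 4.52 ± 0.194. Cacna1h and Hcn4, a T-type calcium channel and the main pacemaker channel, had the lowest levels of the 34 members with 10 or more counts in every heart, at 0.165 ± 0.0719 and 0.162 ± 0.0133 CPM per kb. From the highest to the lowest of these 34, WT levels per kb spanned 3137-fold. The coefficient of variation between animals had a median of 9.18% in WT, from 1.33% for Ryr2 to 43.7% for Cacna1h, and a median of 9.60% in QKO.

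**Figure D1:**
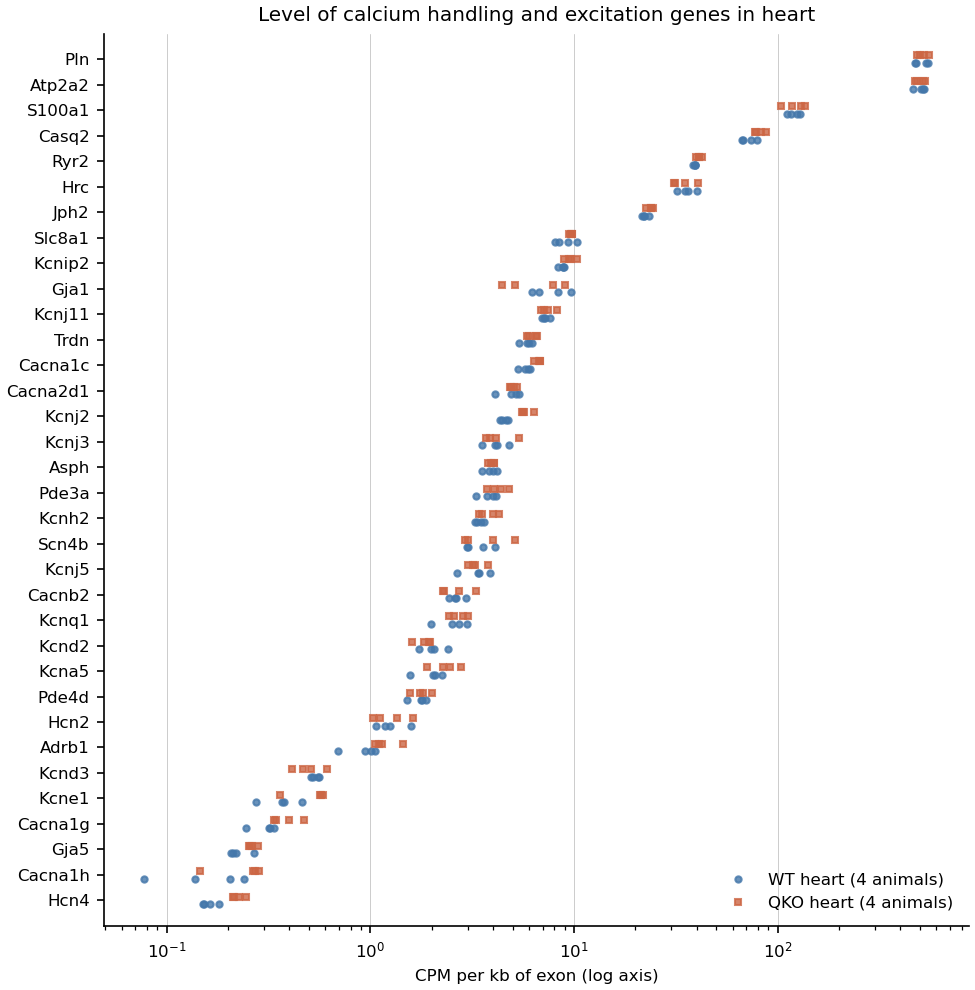
Levels per kilobase of exon on a log axis for the 34 members with 10 or more counts in every heart, 1 point per animal, WT circles and QKO squares. Pln and Atp2a2 sit at the top near 507 and 501 CPM per kb, Hcn4 and Cacna1h at the bottom, and the genotypes lie close together for most genes.

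Between QKO and WT hearts, no member passed the threshold of an adjusted p under 0.05. The edgeR quasi-likelihood test, with Benjamini-Hochberg adjustment over all genes, called 0 of the 35 members tested and 28 of 16974 genes in all (0.165%). DESeq2 called 1 member, Kcnj2, as did edgeR with the replicate number as a block (adjusted p 0.0344), and limma-voom called 0. The estimates leaned upward: 29 members lay higher in QKO and 6 lower. With each heart left out in turn, 24 to 30 lay higher and 5 to 11 lower. The median log2 fold change was 0.08 against -0.0013 over all genes, and 0.05 without WT heart 4. The median size of the difference was 0.10 on the log2 scale for the members and 0.11 for all genes. The 95% interval of the difference lay within 1 log2 unit of 0 for 33 members and within 0.5 for 26.

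Unadjusted p-values under 0.05 were found for 8 members, all higher in QKO (22.9% of those tested). These were Kcnj2, Cacna1c, Hcn4, Adrb1, Cacna1g, Kcne1, Casq2 and Kcnip2. The count was 4 without WT heart 1 and without QKO heart 2, and 0 in 1 fit of all 16 libraries. It was 5 higher and 1 lower without WT heart 3, and 6 and 2 without QKO heart 1. Without WT heart 3 and QKO heart 1 together it was 5 and 3. Within the animals whose numbers begin with 47 it was 9 and 1, and within those beginning with 48 it was 4 and 4. Over all genes tested, 3.19% had such a p with a higher value in QKO and 3.99% with a lower one. In 6 members (17.1%) the lowest QKO library stood above the highest WT library, namely Kcnj2, Cacna1c, Ryr2, Kcnip2, Hcn4 and Adrb1, while 2.27% of all genes showed that pattern. The opposite pattern was found in 0 members and in 2.4% of all genes.

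The sum of general cardiomyocyte markers was also higher in the QKO hearts. The summed level of 6 cardiomyocyte markers (Myh6, Tnnt2, Tnni3, Actc1, Ttn and Tnnc1, none of them a member) was 24200 to 27368 CPM in WT and 28003 to 28526 CPM in QKO hearts, without overlap. With library sizes taken from these markers, an alternative added after the data were seen, the split of 29 higher and 6 lower became 13 higher and 22 lower. The median of all genes then moved to -0.135 and that of the members to -0.0474, 0 members were called, and Kcnj2 and Kcnd2 had an unadjusted p under 0.05, the first higher and the second lower. This scaling lowered the members and all genes alike, so the split by sign moved with it. The median of the members lay above that of all genes under either scaling. A change of library sizes shifts all genes nearly alike, so this order could not have changed and tests nothing. Counts of higher members under marker scaling, given by role below, carry the same shift. The 6 macrophage markers moved the other way, at 63.9 to 81.7 CPM in WT and 52.2 to 60.8 CPM in QKO, while a list of 8 skeletal muscle markers, which includes Ckm and Acta1 that heart muscle also makes, lay at 391 to 447 and 468 to 595 CPM. The 6 neuron and glia markers, 3 of them under 10 counts in every heart, lay at 1.14 to 1.55 CPM in WT and 0.506 to 1.07 CPM in QKO. The 6 ventricular markers overlapped between genotypes, at 3896 to 4455 CPM in WT and 4076 to 4897 CPM in QKO. The smooth muscle, endothelial, fibroblast and hepatocyte lists overlapped as well. The part of these lists in the result was not tested. In whole tissue, fewer cells of a type and less RNA per cell cannot be told apart.

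**Figure D2:**
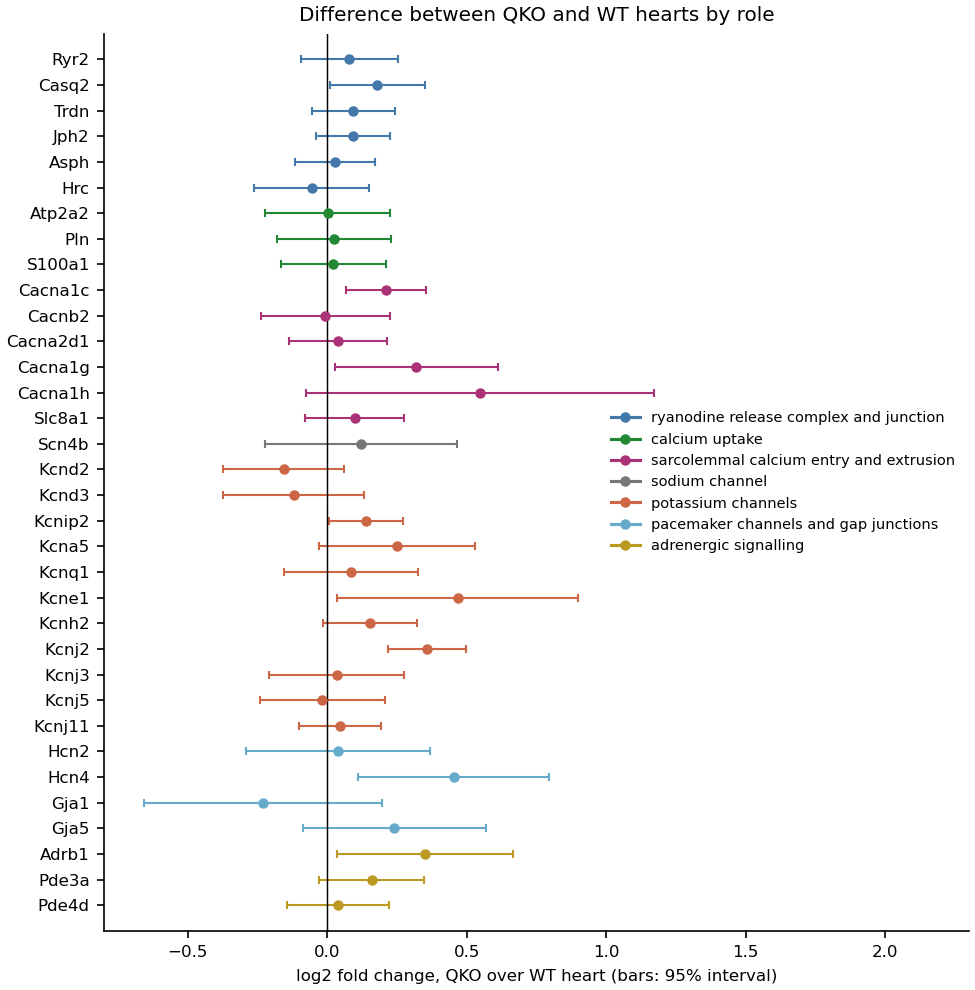
Log2 fold change of QKO over WT heart with its 95% interval for 34 members, coloured by role, Sln and Fkbp1b left out for low counts. Most points lie right of 0, Kcnj2 has the interval farthest from 0 (0.22 to 0.50), and the uptake genes Atp2a2, Pln and S100a1 lie at 0.00 to 0.02.

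Kcnj2 stood closest to the threshold. Its 4 WT hearts had 25.1, 24.0, 23.5 and 25.8 CPM and its 4 QKO hearts 30.3, 30.8, 30.5 and 34.5 CPM. Every QKO heart was above every WT heart, QKO heart 4 was the highest, and the spread within each genotype was smaller than the gap between them. The log2 fold change was 0.36 (SE 0.06), with an adjusted p of 0.0508 and rank 29 of 16974 by p. Over 24 alternatives it stayed higher in QKO, at 0.23 to 0.40, and 9 of them passed the threshold, with adjusted p-values from 6.871e-04 to 1.00 over all 24. Within the animals whose numbers begin with 47 it was 0.32 (adjusted p 0.125), and within those beginning with 48 it was 0.40 (adjusted p 0.214). The gene is ENSMUSG00000041695.2 at chr11:111066164-111076821 on the + strand, and no exon of another annotated gene overlaps its exons.

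Of the 11 potassium channel genes, Kcnj2 included, 8 lay higher in QKO and 3 lower, and 5 lay higher when scaled to cardiomyocyte markers. Kcnip2 had 28.9, 30.9, 30.8 and 30.7 CPM in WT and 31.2, 32.8, 33.6 and 35.9 CPM in QKO hearts. The groups were separated by a narrow margin, and the log2 fold change of 0.14 (SE 0.06, adjusted p 0.692) fell to 0.01 when scaled to cardiomyocyte markers. Its channel partners Kcnd2 and Kcnd3, pores of the fast transient outward current, had log2 fold changes of -0.16 (SE 0.10) and -0.12 (SE 0.12). Kcne1, the accessory subunit of the slow delayed rectifier, had 1.18, 1.21, 0.881 and 1.48 CPM in WT and 1.84, 1.88, 1.15 and 1.82 CPM in QKO hearts. QKO heart 3 fell among the WT values, the other QKO hearts lay above them, and the log2 fold change was 0.47 (SE 0.20, adjusted p 0.671).

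Kcnq1, the pore that Kcne1 joins, had 8.09 to 12.3 CPM over the 8 hearts, with a log2 fold change of 0.08 (SE 0.11). Kcnh2, the rapid delayed rectifier, had 0.15 (SE 0.08) at 15.9 to 20.8 CPM, and Kcna5, the ultrarapid channel, 0.25 (SE 0.13) at 4.49 to 7.98 CPM. Neither passed the test and the genotypes overlapped. The acetylcholine-gated channel genes Kcnj3 and Kcnj5 had log2 fold changes of 0.03 (SE 0.11) and -0.02 (SE 0.10). Kcnj11, the pore of the ATP-sensitive channel of heart muscle, had 0.05 (SE 0.07). Exons of Gm26794 on the opposite strand cover 31.1% of the Kcnj3 exons, and since the strand setting of the counting was not stated, reads of the pair could not be told apart.

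Among the genes for calcium entry, Cacna1c had the smallest p. It had 126, 113, 122 and 129 CPM in WT and 144, 145, 143 and 135 CPM in QKO hearts. QKO heart 4 lay well below its group and still above WT heart 4, the highest WT value. The log2 fold change was 0.21 (SE 0.07, adjusted p 0.539), and 0.08 when scaled to cardiomyocyte markers. The auxiliary subunit genes of the same channel stayed near 0, with log2 fold changes of -0.01 (SE 0.11) for Cacnb2 and 0.04 (SE 0.08) for Cacna2d1.

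Both T-type channel genes, which carry low-voltage calcium current, had low levels. Cacna1g had 3.21, 2.48, 3.27 and 3.43 CPM in WT and 4.77, 4.03, 3.41 and 3.50 CPM in QKO hearts, with QKO heart 3 below WT heart 4, for a log2 fold change of 0.32 (SE 0.14, adjusted p 0.670). Cacna1h had 2.00, 2.33, 0.752 and 1.34 CPM in WT and 2.78, 2.66, 2.60 and 1.43 CPM in QKO hearts. In both genotypes its lowest values came from animals 3 and 4, and the log2 fold change was 0.55 (SE 0.29, adjusted p 0.732), with a 95% interval of -0.08 to 1.17. Slc8a1, the sodium-calcium exchanger, had 151 to 195 CPM in WT and 177 to 184 CPM in QKO, a log2 fold change of 0.10 (SE 0.08). Scn4b, a sodium channel subunit, ranged from 14.5 to 25.6 CPM over the 8 hearts, with 0.12 (SE 0.16).

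In the release complex, 5 of 6 tested members lay higher in QKO, and 1 of 6 when scaled to cardiomyocyte markers. Ryr2 had 1132, 1100, 1129 and 1126 CPM in WT and 1227, 1186, 1146 and 1180 CPM in QKO hearts. The groups did not overlap but stood close together, with a log2 fold change of 0.08 (SE 0.08, adjusted p 0.846). Casq2 had 203, 216, 182 and 185 CPM in WT and 210, 225, 215 and 239 CPM in QKO hearts, with WT heart 2 among the QKO values. Its log2 fold change was 0.18 (SE 0.08, adjusted p 0.681), and 0.05 when scaled to cardiomyocyte markers.

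Trdn, the triadin gene whose protein links calsequestrin to the receptor, and Jph2 each had a log2 fold change of 0.09 (SE 0.07 and 0.06). Asph, whose locus also encodes junctin, had 0.03 (SE 0.07), and Hrc had -0.06 (SE 0.10). For Asph, exons on the opposite strand cover 14.7% of the exons. Fkbp1b, which encodes the calstabin bound to the receptor, did not pass the filter on low counts, with 24 counts summed over 4 WT hearts and 27 over 4 QKO hearts. Its paralog Fkbp1a had 9.97 CPM in WT and 10.2 CPM in QKO hearts (log2 fold change 0.03, SE 0.08).

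The pump and its regulators, 4 genes with Sln, had log2 fold changes of 0.00 to 0.02, each smaller than its SE. When scaled to cardiomyocyte markers, 0 of 4 lay higher (median -0.12). Atp2a2 had 3075, 3125, 2805 and 3174 CPM in WT and 3223, 3147, 2867 and 2950 CPM in QKO hearts. Animal 3 was the lowest of each genotype, and the log2 fold change was 0.00 (SE 0.10), with a 95% interval of -0.22 to 0.22. Pln had 1478, 1501, 1302 and 1315 CPM in WT and 1434, 1533, 1339 and 1378 CPM in QKO hearts, a log2 fold change of 0.02 (SE 0.09). S100a1 had 71.8 to 94.8 CPM over the 8 hearts, with 0.02 (SE 0.09). Every one of these genes overlapped between genotypes. Exons of Cep85l and Gm47644 on the opposite strand cover 64.7% of the Pln exons, so its counts may hold reads of those genes.

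Sln, which encodes sarcolipin, a pump inhibitor found mainly in atrial muscle, varied most between animals. It had 1, 1, 78 and 44 counts in WT hearts 1 to 4 and 86, 16, 0 and 6 counts in QKO hearts 1 to 4. WT heart 3 and QKO heart 1 were the highest, at 2.02 and 2.20 CPM, and they were also the highest for the atrial light chains, with Myl7 at 11.2 and 7.79 CPM and Myl4 at 7.86 and 7.61 CPM. In the other hearts Myl7 had 0 to 2.47 CPM. The summed level of all 8 atrial markers, of which Nppa is also made by ventricle, was 22.8 to 49.3 CPM in WT and 31.4 to 46.6 CPM in QKO. The log2 fold change of Sln was 0.00 (SE 1.30), but 1.72 without WT heart 3 and -2.35 without QKO heart 1, and the part of atrial tissue in it was not tested. Leaving out both of these hearts, an alternative added after the data were seen, left 0 members called.

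**Figure D3:**
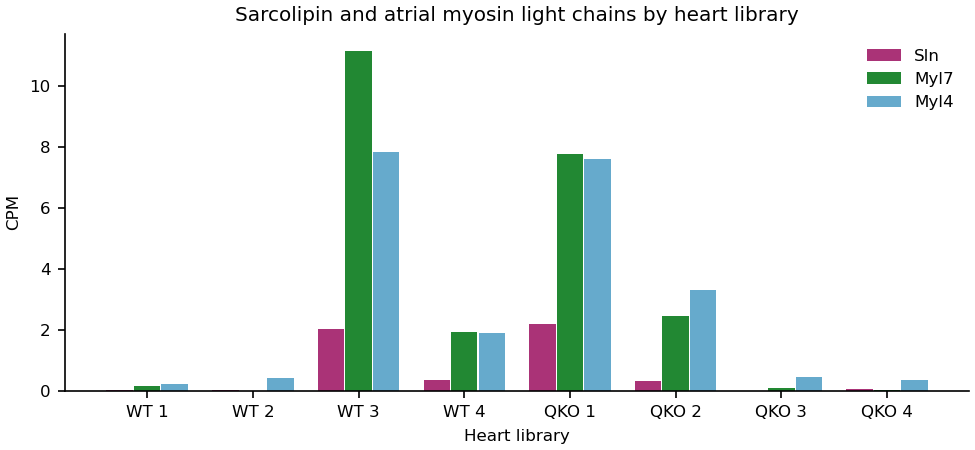
CPM of Sln and of the atrial light chains Myl7 and Myl4 in each of the 8 heart libraries. All 3 are highest in WT heart 3 and QKO heart 1, where Sln reaches 2.02 and 2.20 CPM.

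Of the 4 pacemaker and gap junction genes, 3 lay higher in QKO and 1 lower, and 2 lay higher when scaled to cardiomyocyte markers. Hcn4 had 0.923, 0.998, 0.933 and 1.10 CPM in WT and 1.38, 1.50, 1.29 and 1.31 CPM in QKO hearts. Every QKO value was above every WT value, with a log2 fold change of 0.45 (SE 0.16, adjusted p 0.655), and 0.32 when scaled to cardiomyocyte markers. The levels are low, with 254 counts summed over the WT hearts and 346 over the QKO hearts. The 8 markers of the conduction system summed to 8.97 to 10.1 CPM in WT and 9.33 to 11.1 CPM in QKO, and Isl1 among them had 0 to 0.0519 CPM. Hcn2, the ventricular pacemaker channel, had 0.04 (SE 0.15).

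Gja1 encodes connexin 43, the main gap junction protein of the ventricle. It had 85.4, 99.3, 69.2 and 64.0 CPM in WT and 92.3, 81.0, 52.4 and 45.3 CPM in QKO hearts. Animals 1 and 2 lay above animals 3 and 4 in both genotypes, and the genotypes overlapped, with a log2 fold change of -0.23 (SE 0.20, adjusted p 0.818). Animals 1 and 2 are those whose numbers begin with 47. Gja5, connexin 40 of the atria and conduction fibres, had 1.18 to 1.54 CPM in WT and 1.46 to 1.61 CPM in QKO, a log2 fold change of 0.24 (SE 0.15).

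For adrenergic signalling, Adrb1, the main cardiac adrenergic receptor, had 2.33, 3.42, 3.19 and 3.54 CPM in WT and 4.90, 3.54, 3.86 and 3.71 CPM in QKO hearts. QKO heart 2 exceeded WT heart 4 only in the third decimal, and QKO heart 1 was the highest. The log2 fold change was 0.35 (SE 0.15, adjusted p 0.660), and 0.21 when scaled to cardiomyocyte markers. The phosphodiesterase genes Pde3a and Pde4d, whose enzymes break down cyclic AMP, had 0.16 (SE 0.09) and 0.04 (SE 0.09).

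**Figure D4:**
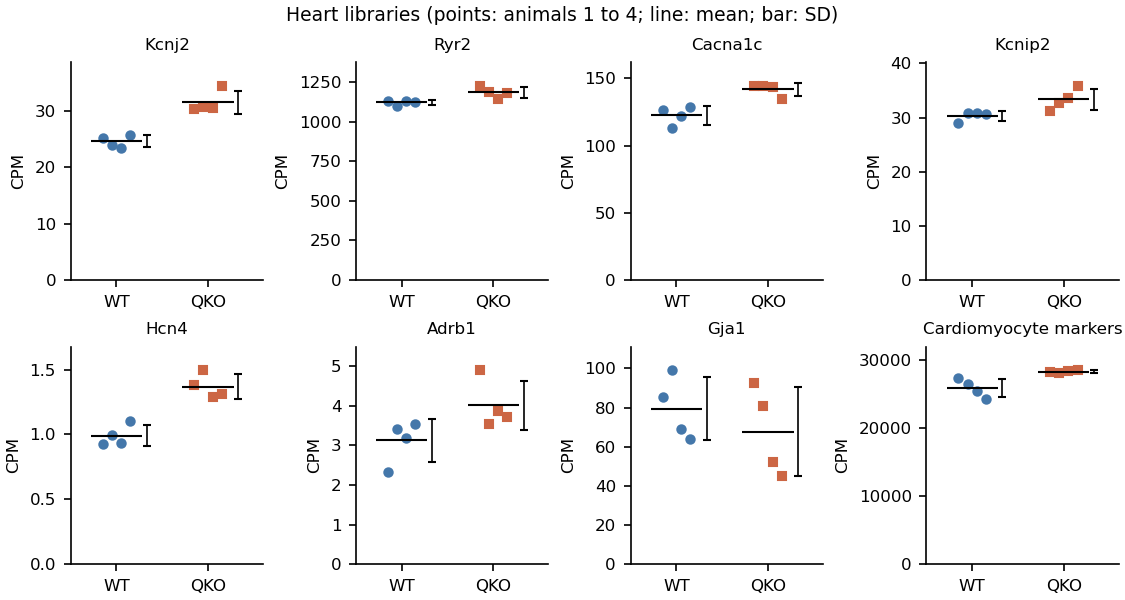
CPM in each heart for the 6 members whose genotypes did not overlap, for Gja1, and for the sum of 6 cardiomyocyte markers, with the mean as a line and the SD as a bar (n = 4 per genotype). Axes start at 0: the Kcnj2 means are 24.6 and 31.5 CPM, and the marker sum is higher in QKO as well.

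Ratios between partners do not depend on library size and were tested with exact permutation (two-sided, 70 relabellings), for which the smallest possible p is 0.0286. Of 10 ratios of levels per kb, 0 had a p under 0.05. With that floor, no single ratio could reach an adjusted p under 0.05, which would need several ratios at the floor together. Pln over Atp2a2, the brake relative to the pump, was 1.01 ± 0.069 in WT and 1.03 ± 0.038 in QKO hearts (SD, n = 4; exact permutation p = 0.743, adjusted over the 10 ratios 0.825). Kcne1 over Kcnq1 had the smallest p, with 0.146 ± 0.0171 in WT and 0.192 ± 0.0311 in QKO (exact permutation p = 0.0571, adjusted 0.357) and QKO heart 3 within the WT range. Kcnip2 over Kcnd2 was 4.35 ± 0.681 and 5.27 ± 0.612 (exact permutation p = 0.114, adjusted 0.357). Gja5 over Gja1 was 0.0298 ± 0.00315 and 0.0440 ± 0.0160 (exact permutation p = 0.143, adjusted 0.357).

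The wider pathway lists gave no call either. They held 148 further genes in 6 lists, of which 122 were tested in heart, with 0 called by edgeR, 0 by DESeq2 and 0 by limma-voom, and 12 with an unadjusted p under 0.05 (9.84%, against 7.19% of all genes). Of these genes, 72 lay higher in QKO and 50 lower. Of 19 potassium channel genes outside the set, 6 lay higher and 13 lower (median -0.05), and of 35 adrenergic and cyclic nucleotide genes, 25 and 10 (median 0.04). The store genes were 13 and 6, the sodium channel and pump genes 12 and 5, the pacemaker and gap junction genes 8 and 6, and the genes of calcium entry and extrusion 8 and 10.

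Each list is represented by its gene with the smallest p in heart. Rrad, a small GTPase that inhibits the L-type channel, had 19.6 CPM in WT and 26.2 CPM in QKO (log2 fold change 0.42, SE 0.13, adjusted p 0.516). Adcy5, a major adenylyl cyclase of heart, had 21.4 and 25.4 CPM (0.24, SE 0.08, adjusted p 0.503). Tmem38a, a cation channel of the sarcoplasmic reticulum, had 86.4 and 97.7 CPM (0.18, SE 0.07), and Bves, a cyclic AMP-binding membrane protein, 11.3 and 12.9 CPM (0.20, SE 0.08). Kcnj8, the vascular ATP-sensitive channel pore, had 9.75 and 11.1 CPM (0.18, SE 0.08), and Scn7a, a sodium-sensing channel, 19.3 and 16.1 CPM (-0.27, SE 0.10). The adjusted p-values of these last 4 genes were 0.660 to 0.670.

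In liver, which lacks heart muscle, 17 of the 36 members passed the filter on low counts. The edgeR test called 0 of them between genotypes, with 0 at an unadjusted p under 0.05, and DESeq2 and limma-voom called 0 as well. Over all genes, 15 of 17738 were called (0.0846%). The 17 members split into 7 higher and 10 lower in QKO, with a median of -0.15. Atp2a2, whose gene also encodes the pump form of most other cells, had 93.1 to 133 CPM in WT and 73.9 to 106 CPM in QKO livers (log2 fold change -0.32, SE 0.16), and the log2 fold change was -0.11 without WT livers 3 and 4. S100a1 had 44.8 to 71.8 CPM and Asph 34.2 to 46.8 CPM over the 8 livers.

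WT livers 3 and 4 stood apart. Markers of pancreatic acinar cells summed to 710 CPM in WT liver 3 and 215 CPM in WT liver 4, against 4.21 to 8.48 CPM in the other livers, and their part in the liver values was not tested. WT liver 4 also held 314 CPM of the 6 cardiomyocyte markers against 21.5 to 66.8 CPM in the other livers, and 275 CPM of 8 skeletal muscle markers against 0.674 to 22.8 CPM. Heart and skeletal muscle make some of these markers in common, so which muscle the RNA came from was not told apart. Of the 36 members, 20 had their highest liver value in WT liver 4. Casq2 had 0.307, 0.283, 0.299 and 4.62 CPM in WT and 0.188, 0.465, 0.322 and 0.654 CPM in QKO livers, and Sln had 123 counts in WT liver 4 against 0 to 12 elsewhere. The log2 fold change of Casq2 was -1.73 (SE 0.89, adjusted p 1.00) with that library and 0.47 without it. Without it the 17 members split into 10 higher and 7 lower, with a median of 0.05.

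The genotype effect was not shown to differ between heart and liver for any member. In the interaction test edgeR called 0 of 35 members and 1 of 19587 genes (0.00511%), DESeq2 called 0 members, and 11 members (31.4%) had an unadjusted p under 0.05, against 4.00% of all genes. Of these 35 members, 18 had not passed the liver filter and entered through their heart counts, and of the other 17 members 1 had such a p. For 30 members the heart effect exceeded the liver effect and for 5 it was smaller. Without WT liver 4 these counts became 17 and 18, and 2 members, Kcnd3 and Hcn4, had an unadjusted p under 0.05. For Trdn the estimate went from 3.15 to -0.54 when that library was left out. Hcn4 had 1, 0, 7 and 4 counts in WT livers and 0 in each QKO liver.

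Heart exceeded liver for nearly the whole set. In WT animals 33 of 34 members tested (97.1%) were called higher in heart, where 35.6% of all 18204 genes were, with a median log2 fold change of 6.57. Of these 34 members, 17 had not passed the filter in liver alone and entered through their heart counts, which fixed their direction, so the share is a description. Of the other 17, 16 were called higher in heart in each genotype. In QKO animals it was again 33 of 34, where 37.2% of all genes were, with a median of 7.57, which also held when genes without liver counts were set at their bound. Blocking by animal left 33 calls in each genotype, and DESeq2 called 28 in WT, with no adjusted p for 5 others, and 33 in QKO. Sln and Fkbp1b were not tested. Counts of heart and liver were scaled together here, so these values are not ratios of the CPM given above.

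Ryr2 had a log2 fold change of 10.20 (SE 0.52) in WT and 10.26 (SE 0.35) in QKO, and Kcnip2 9.83 (SE 0.27) and 10.13 (SE 0.30). Pln had 9.07 (SE 0.37) and 9.36 (SE 0.26), and Atp2a2 5.68 (SE 0.27) and 6.02 (SE 0.24). Smaller steps were found for members that liver also makes, with Asph at 1.44 (SE 0.12) and 1.58 (SE 0.12) and S100a1 at 1.46 (SE 0.16) and 1.49 (SE 0.15). Kcne1 and Hcn4 had 0 counts in all 4 QKO livers and were at least 242-fold and 192-fold higher in QKO heart, against a floor of 3 counts over the group.

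WT liver 4 also set some of these values. Trdn was 7.13 (SE 1.02) higher in WT heart with that library and 10.83 without it, and Scn4b 5.39 (SE 0.87) and 8.21. In QKO the same genes stood at 10.32 and 8.75. Gja5, which endothelium of arteries also makes, was the exception in both genotypes, at -0.04 (SE 0.20, adjusted p 0.864) in WT and 0.35 (SE 0.19, adjusted p 0.103) in QKO. In QKO it passed the threshold without QKO liver 4 (0.45, adjusted p 0.0476), under upper-quartile scaling (0.54, adjusted p 0.0181) and with the filter of 1 CPM (0.44, adjusted p 0.0459).

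**Figure D5:**
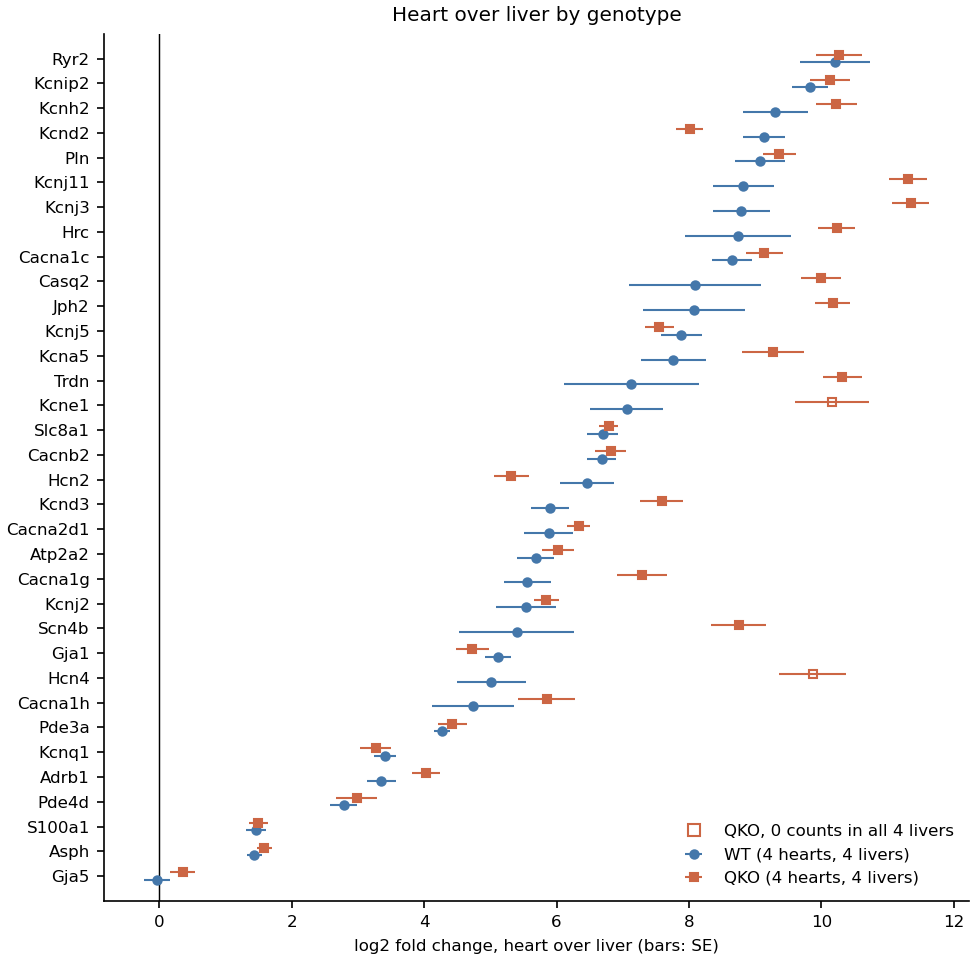
Log2 fold change of heart over liver for 34 members in WT (circles) and QKO (squares), with SE bars, and open squares for the 2 genes without counts in any QKO liver. Gja5 lies near 0, Asph and S100a1 between 1.44 and 1.58, and Ryr2 at 10.20 in WT.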

How the data were processed

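The deposited values were raw counts per gene, in whole numbers, for 16 libraries. Stranded libraries were made from total RNA with a ribosomal depletion kit and read as pairs of 75 bp, per the labels. Per the submitters' processing notes, the build was mm10 and the tools included HISAT2, featureCounts, cutadapt and limma; the annotation release and strand setting were not given in the sources used here. Identifiers were matched, version dropped, to GENCODE M21 on GRCm38 (48349 matched, 360 did not), and 0 sample columns were left unmapped.

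The members and gene lists were chosen with earlier results of these data known. Each tissue was tested apart with edgeR 4.0.16 (R 4.3.3), after TMM scaling and filterByExpr with a minimum count of 10, by the quasi-likelihood F test over all genes, with Benjamini-Hochberg adjustment and a threshold of 0.05. The SE is the size of the log2 fold change over the square root of F. The interaction used all 4 groups. DESeq2 1.42.0 and limma-voom 3.58.1 were alternatives, with other scalings, filters, blocks and left-out libraries. CPM per kb divides by the union of exons. All 36 members are named, with the 4 Msr genes and the gene of smallest p in heart from each of 6 pathway lists; other genes were named after their values were seen. The fit was tested on simulated data.

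Within a group each library came from a separate animal. Heart and liver of the same animal pair by the labels, and their deviations from group means correlated at 0.0328 to 0.165 across genes in 8 animals. No 2 of the 24 replicate pairs within groups were copies, with a chi-square per gene of 26.3 or more. Depth sets the precision, and low members such as Hcn4 rest on few counts.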

Additional observations from a re-analysis of the deposited data

Results flagged for a closer look

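In 9 of 104 groups of 4 libraries, 1 library stood apart from the other 3 by Dixon's test at its 95% level, where chance gives about 1 in 20. Among hearts these were Kcnj2 in QKO heart 4, at 34.5 CPM against 30.3 to 30.8 in the others, and Cacna1c in QKO heart 4, at 135 CPM against 143 to 145. Cacna1h in QKO heart 4 had 1.43 CPM against 2.60 to 2.78. Kcnip2 in WT heart 1 had 28.9 CPM against 30.7 to 30.9, and Kcne1 in QKO heart 3 had 1.15 CPM against 1.82 to 1.88. Sln in QKO heart 1 had 2.20 CPM against 0 to 0.337. QKO heart 4 was the heart with 0.139% nuclear ribosomal RNA, and the part of this in its 3 values was not tested.

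Among livers, Casq2 in WT liver 4 had 4.62 CPM against 0.283 to 0.307. That library held 314 CPM of cardiomyocyte markers and 275 CPM of skeletal muscle markers. In QKO liver 3, Cacnb2 had 0.268 CPM against 0.648 to 0.702, and Kcnj2 had 0.590 CPM against 1.13 to 1.20.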

How the results depend on the processing

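The count of members called between QKO and WT hearts was 0, and it became 1 under DESeq2, RLE scaling, upper-quartile scaling, no filter on low counts, the filter of 1 CPM, protein-coding genes alone, the replicate block, the animal series as a term and a robust dispersion. In each of these the gene was Kcnj2, with an adjusted p of 6.871e-04, 0.0467, 0.0479, 0.0108, 0.0431, 0.0494, 0.0344, 0.0297 and 0.0214 in that order. Within the animals whose numbers begin with 47 the count was also 1, for Sln (log2 fold change 5.64, adjusted p 0.0154). The causes were not tested. With each heart left out in turn the count stayed at 0, and Kcnj2 had adjusted p-values of 0.0724 to 0.189 and log2 fold changes of 0.31 to 0.38. The median of the members was -0.0474 with library sizes from cardiomyocyte markers, where that of all genes was -0.135.

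Same-numbered WT and QKO animals are different animals, and their heart deviations correlated at 0.115, 0.150, 0.0366 and 0.716. All 4 over 0.1 were required for a pairing and 1 was not, so the numbers were not taken as pairs. The value of 0.716 was that of WT heart 4 and QKO heart 4, the hearts with 7.20% and 0.139% nuclear ribosomal RNA. The part of this in the correlation was not tested. With both left out, edgeR called 0 members, and Kcnj2 had an adjusted p of 0.1315. Of the 8 hearts, 4 correlated best with their own number. The replicate block called 1 member and 50 genes in heart against 28 in all, and 0 members in liver. Calls over all heart genes were also 60 under DESeq2, 102 without a filter, 108 and 37 within the animal series beginning 47 and 48, 57 with cardiomyocyte scaling, 16 in 1 fit of all libraries and 18 to 25 with 1 heart left out, the lowest without QKO heart 2 and without QKO heart 4. In liver they were 50 under DESeq2, 44 in 1 fit and 33 within series 48, against 15.

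Of the 10 ratios, 2 moved by more than the spread between animals: Sln over Pln (log2 fold change -0.30) was 4.68 and -5.29 within series 47 and 48, and Casq2 over Ryr2 (0.10) was -0.06 and 0.26. The liver and interaction counts stayed at 0 in all alternatives run, and the tissue counts at 28 to 34 in WT and 33 to 35 in QKO. Directions of members short of the threshold were not counted as changes.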

Other observations

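Among the wider pathway genes, DESeq2 called 1 in liver, Scn7a, with a log2 fold change of -1.91 and an adjusted p of 0.0243, where edgeR gave -1.90 (SE 0.50) and 0.805. QKO heart 1 held the highest heart value for 14 of the 36 members, and WT heart 3 the lowest for 13.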
